A study of Arabidopsis thaliana with 11 samples.

Results

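The beta-amylase family of *Arabidopsis thaliana* (BAM1 to BAM9) and the alpha-amylase AMY1 were followed in seedlings with and without the receptor of the sulfated peptide PSY1. These 10 loci were taken by their locus identifiers, with each probe placed on its locus by the RefSeq transcript in the array's annotation. They carried 13 of the 43603 probes on the array, against 25433 loci with a probe in all. The family was chosen by the BAM6 (AT2G32290) signal in PSY1-treated against untreated wild type, a contrast for which the study lists the gene, so this contrast is described here with its values and is not tested for any of the 10 loci.

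Starch is stored in plastids as a glucan that is broken down from the ends of its chains. Beta-amylases release maltose from these ends, while alpha-amylases cut within the chains. In *Arabidopsis* BAM1, BAM2 and BAM3 are plastid enzymes, and BAM3 does much of the nightly breakdown in leaves. BAM4 and BAM9 are plastid proteins without enzyme activity, and BAM5 lies outside the plastid. BAM7 and BAM8 are nuclear transcription factors with a beta-amylase-like domain. AMY1 is a secreted alpha-amylase.

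Whole week-old seedlings of ecotype Columbia-0 were grown in flasks of sucrose-containing medium under continuous light, and all groups share these conditions. WT is the untreated wild type and *psy1r* the untreated receptor knockout, which is represented by a single line. WT + PSY1 and *psy1r* + PSY1 received 10 nM PSY1 for 4 h. Each RNA was hybridised to a single-colour Agilent array, with 3 arrays in each group except *psy1r* + PSY1, which had only replicates 1 and 3, its other sample being not analysed here. RNA of whole seedlings cannot tell fewer cells of a type from less RNA per cell.

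Values are log2 of the background-subtracted spot signal, scaled to the 75th percentile of each array, and compare one probe between arrays only. The scanner software called 72.4% to 81.8% of the spotted probes well above background, depending on the array. The PSY1R transcript stood at 9.21 ± 0.38 in WT against 3.42 ± 1.16 in *psy1r* (SD, n = 3 each), which differ by -5.79 (limma, adjusted p = 0.0104), with 1 *psy1r* array well above background. In *psy1r* + PSY1 it was 3.12 (not well above background) and 5.91. Replicate 3 of WT and replicate 3 of *psy1r* stood apart, at a median absolute log2 difference of 0.278 to 0.329 from the other arrays of their groups, and both *psy1r* + PSY1 arrays differed by 0.32, against 0.0681 to 0.092 for the remaining pairs of a group. Arrays with the same replicate number shared a slide. The 5 leaf and 5 root marker genes were well above background on all 11 arrays. The mean log2 signal of the root genes was lower on replicate 3 of WT and of *psy1r*. It was 9.478, 9.498 and 8.178 in WT and 9.272, 9.275 and 7.321 in *psy1r* (replicates 1, 2 and 3). In WT + PSY1 it was 8.936, 8.977 and 9.078, with replicate 3 the highest, and in *psy1r* + PSY1 8.504 and 8.256. Whether this root difference bears on the amylase values of replicate 3 was not tested. Of 13 seed storage and oil body genes, 6 to 11 were well above background on 10 arrays, with a mean log2 signal of 4.45 to 5.70, while replicate 3 of *psy1r* + PSY1 had all 13 and a mean of 10.59. A called locus had to exceed 2-fold with an adjusted p under 0.05.

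All 10 amylase loci passed the filter on dim probes, which asks for a probe well above background on at least 2 arrays. BAM6 passed through its 3 WT + PSY1 arrays alone and AMY1 through 3 WT arrays and 1 WT + PSY1 array. The other 8 loci were well above background on all 11 arrays. Transcripts of BAM1, BAM2, BAM3, BAM4, BAM7, BAM8 and BAM9 had group means within 0.80 log2 units of each other, while those of BAM5 spread over 2.44 and those of BAM6 over 2.58.

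**Figure D1:**
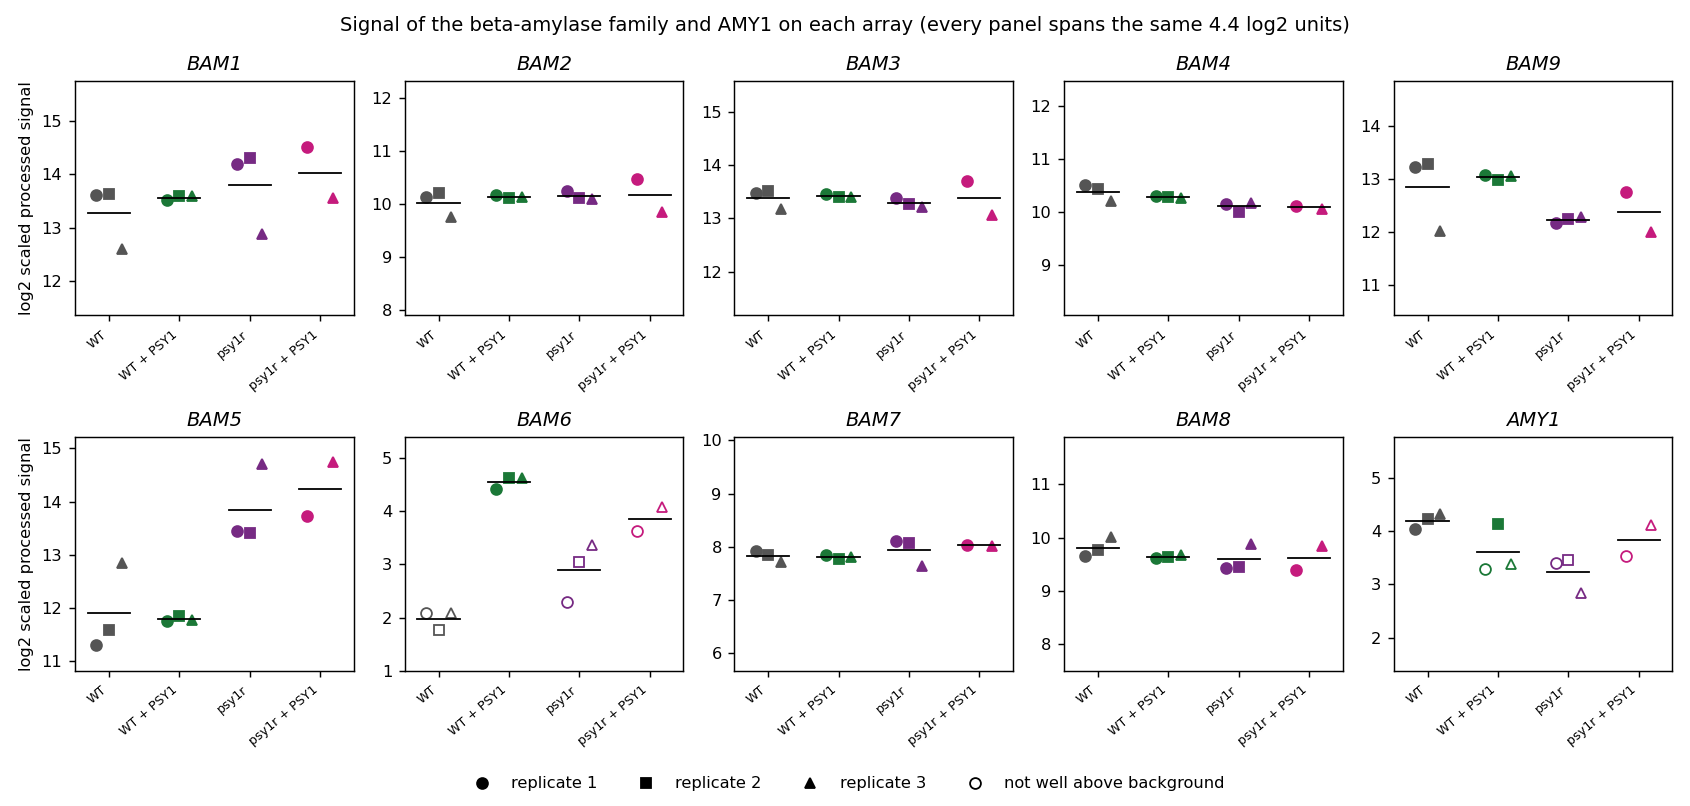
Log2 scaled signal of the main probe of each amylase locus on each array (vertical axes, each spanning the same range) in the 4 groups (horizontal axes), with a line at each group mean and hollow symbols for arrays not well above background. BAM5 is higher on every *psy1r* and *psy1r* + PSY1 array than on any WT or WT + PSY1 array. BAM6 is well above background only on the 3 WT + PSY1 arrays.

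BAM6 transcripts were up-regulated more than 2-fold in WT + PSY1 against WT, which is the value that led to the choice of the family. The log2 signals were 2.08, 1.77 and 2.09 in WT, none well above background, and 4.42, 4.62 and 4.63 in WT + PSY1, all well above background. In *psy1r* they were 2.29, 3.04 and 3.36 and in *psy1r* + PSY1 3.63 and 4.08, none of these well above background. No group overlapped with another. Only the WT + PSY1 arrays were well above background, so no order among the other groups is read from these values.

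The difference of BAM6 between WT + PSY1 and WT was 2.57 log2 units. Against the lowest signal well above background on the WT arrays it was at least 2.23-fold, and within the slides it was 2.34, 2.85 and 2.54. The spots themselves were dim. The median reading of the BAM6 spot was 44 to 48 scanner units in WT beside a local background of 39 to 51, and 64, 70 and 80 in WT + PSY1 beside 53, 46 and 47.5. It was 46.5 to 50.5 in *psy1r* beside 45 to 50.5, and 57 and 58 in *psy1r* + PSY1 beside 46 and 48. The background-subtracted signals of WT + PSY1 were 20.9 ± 3.48, 29.5 ± 3.79 and 30.7 ± 4.49 (error of the scanner software for each spot). Those of *psy1r* + PSY1 were 13.8 ± 5.55 and 15 ± 3.63. The lowest log2 signal of any probe well above background was 4.331 and 3.947 on the *psy1r* + PSY1 arrays and 2.885 to 3.551 on the WT + PSY1 arrays. Being well above background thus asked for different signals on different arrays. With the local background handled by normexp and an offset of 50, the log2 difference was 0.33.

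**Figure D2:**
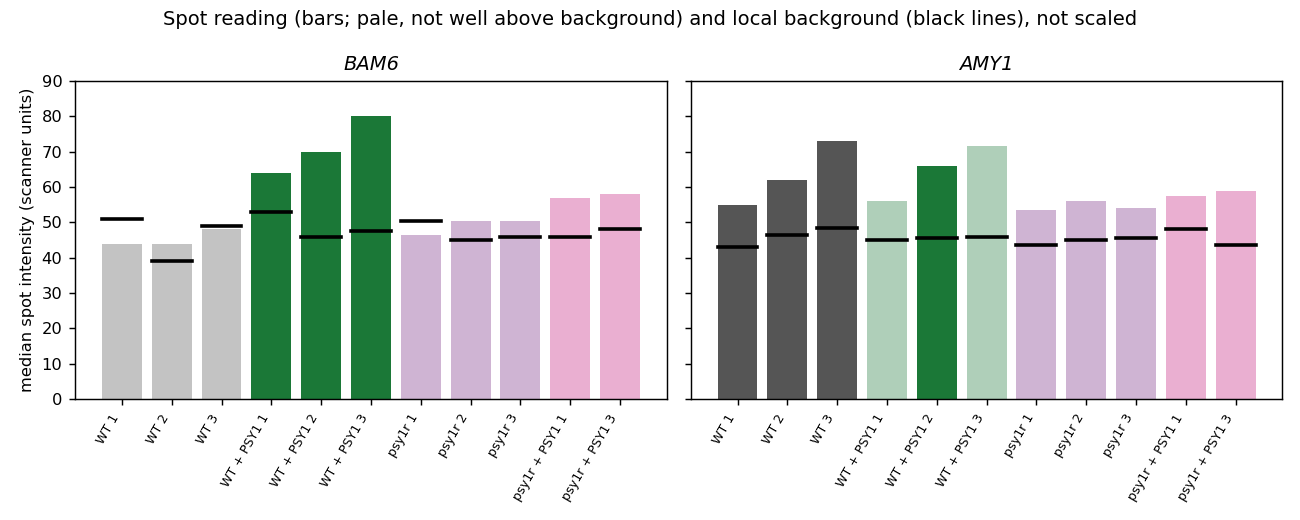
Median spot intensity of BAM6 and AMY1 in scanner units (bars, pale where the spot was not well above background) on each of the 11 arrays, with black lines for the local background. The BAM6 bars of WT + PSY1 reach 64, 70 and 80, and all other BAM6 bars lie at 58 or lower.

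Without the receptor no array was well above background for BAM6, with or without PSY1. The *psy1r* + PSY1 arrays lay below the WT + PSY1 arrays without overlap, by at least 1.27-fold by the bound of the main scaling. In this bound replicate 3 of *psy1r* + PSY1 entered with its own signal of 4.083, above the lowest signal well above background of 3.947. With normexp and an offset of 50 the log2 difference was only -0.115, so the bound does not hold there. These values are given without a test because the WT + PSY1 values chose the family. No fold is given for *psy1r* + PSY1 against *psy1r*, with measured means of 3.86 ± 0.32 (SD, n = 2) and 2.90 ± 0.55 (SD, n = 3), or for *psy1r* against WT, whose mean was 1.98 ± 0.18 (SD, n = 3). Whether BAM6 responded differently to PSY1 in the mutant is not read from these arrays. No array of WT, *psy1r* or *psy1r* + PSY1 was well above background for it.

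BAM5 transcripts were higher in *psy1r* than in WT and higher in *psy1r* + PSY1 than in WT + PSY1 on both of its probes, with adjusted p-values above the threshold. BAM5 (AT4G15210) is the main beta-amylase outside the plastid and is known as a sugar-inducible gene of the phloem. On the probe with the higher mean (A_84_P567982), the log2 signals were 11.30, 11.58 and 12.85 in WT and 11.76, 11.85 and 11.77 in WT + PSY1. In *psy1r* they were 13.44, 13.41 and 14.70, and in *psy1r* + PSY1 13.72 and 14.74. Every array of the mutant was thus above every array of the wild type, with or without the peptide. In order of their means the groups were WT + PSY1, WT, *psy1r* and *psy1r* + PSY1. The first pair overlapped and so did the last pair.

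The BAM5 difference between *psy1r* and WT was 1.94 log2 units or 3.84-fold (standard error 0.48, 95% interval 0.85 to 3.03, limma adjusted p = 0.0965, n = 3 and 3). Replicate 3 was the highest array in both groups, and the differences within slides were 2.13, 1.83 and 1.85. With slide blocking the same difference had an adjusted p of 0.0473 (0.0976 on the second probe). Without WT replicate 3 the difference was 2.41 (adjusted p = 0.0261). With replicate 3 left out of WT, *psy1r* and *psy1r* + PSY1 it was 1.98. That setting was chosen after seeing the data and rests on replicates 1 and 2, which were close to each other. Its p-value is not given, since it lacks the spread to replicate 3. BAM5 was called in 5 of 26 alternative settings, and the adjusted p ranged from 7.13e-05 to 0.816, the latter with replicates 1 and 2 averaged.

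In *psy1r* + PSY1 against WT + PSY1, the BAM5 difference was 2.44 log2 units or 5.42-fold (standard error 0.537, 95% interval 1.22 to 3.66, limma adjusted p = 0.0621, n = 2 and 3). Within the slides of replicates 1 and 3 it was 1.96 and 2.97. It was called after the RMA steps (2.53, adjusted p = 0.0383) and with normexp (2.51, adjusted p = 0.0215) but not with slide blocking (2.32, adjusted p = 0.0578) or without *psy1r* + PSY1 replicate 3 (1.93, adjusted p = 0.227). Over all alternatives it was called in 10 of 26 settings, with an adjusted p of up to 0.384, the latter with replicates 1 and 2 averaged. With replicate 3 left out of the 3 groups it was 1.93, where the lone *psy1r* + PSY1 array was taken to vary like the other groups. On the BAM5 probe with the higher mean, treated and untreated seedlings of the same line overlapped. The difference was -0.12 log2 units in WT, described without a test, and 0.38 in *psy1r* (standard error 0.537, 95% interval -0.84 to 1.60, adjusted p = 1). The array of *psy1r* + PSY1 with the high seed transcripts was the highest for BAM5, at 14.74, beside 14.70 on replicate 3 of *psy1r*. The mean log2 signal of the seed list was 10.59 and 5.698 on these arrays. It was 5.08 and 5.43 on replicates 1 and 2 of *psy1r*. The part of the seed transcripts was not tested.

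On the second probe of BAM5 (A_84_P21473), the log2 signals were 9.90, 9.94 and 11.75 in WT and 9.71, 9.75 and 9.64 in WT + PSY1. They were 11.90, 11.90 and 12.86 in *psy1r*, and 11.76 and 13.35 in *psy1r* + PSY1. The mutant was again above the wild type of the same treatment on every array. The difference between *psy1r* and WT was 1.69 (adjusted p = 0.191), within slides 1.997, 1.96 and 1.11. That between *psy1r* + PSY1 and WT + PSY1 was 2.86 (adjusted p = 0.0628), within slides 2.05 and 3.71. The probes differed for WT + PSY1 against WT, where this probe had -0.83, and on it all WT + PSY1 arrays were below all WT arrays.

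**Figure D3:**
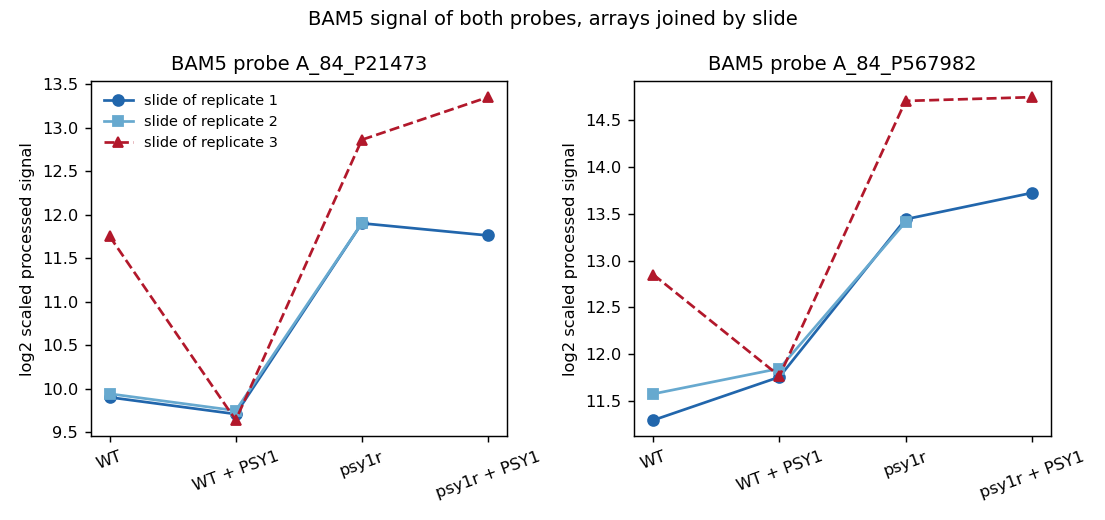
Log2 scaled signal of both BAM5 probes (vertical axes) in the 4 groups (horizontal axes), with the arrays of one slide joined. On every slide the line rises from WT to *psy1r*, by 2.13, 1.83 and 1.85 on the right-hand probe, and the slide of replicate 3 lies highest except in WT + PSY1.

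The plastid enzymes BAM1 (AT3G23920), BAM2 (AT4G00490) and BAM3 (AT4G17090) did not differ between any groups by a change that passed the test. BAM1 signals were 13.61, 13.64 and 12.60 in WT, 13.52, 13.59 and 13.59 in WT + PSY1, 14.20, 14.30 and 12.89 in *psy1r*, and 14.51 and 13.55 in *psy1r* + PSY1. Replicate 3 was the lowest array of BAM1 in WT, *psy1r* and *psy1r* + PSY1, and all neighbouring groups overlapped. Between *psy1r* and WT the BAM1 difference was 0.52 (standard error 0.434, 95% interval -0.47 to 1.5, adjusted p = 0.599), and it was positive on each slide, at 0.60, 0.66 and 0.30. With replicate 3 of the 3 groups left out it was 0.63, which is below 2-fold.

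BAM3 and BAM2 had the closest group means of the amylase loci, both within 0.13 log2 units. Over single arrays, the main probes of BAM4 (10.01 to 10.52) and BAM7 (7.64 to 8.10) ranged less. BAM3 signals ran from 13.06 to 13.70 over the 11 arrays, with the lowest and the highest in *psy1r* + PSY1. The BAM3 difference between *psy1r* and WT was -0.09 (95% interval -0.47 to 0.29, adjusted p = 0.84), and between *psy1r* + PSY1 and WT + PSY1 -0.04 (95% interval -0.46 to 0.39, adjusted p = 0.931). BAM2 signals ran from 9.75 to 10.47 on its main probe, with differences of 0.13 and 0.02 in the same contrasts (adjusted p = 0.768 and 0.961). Its second probe was dimmer, well above background on 8 of 11 arrays, and spread from 4.00 to 5.96.

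Of the plastid proteins without enzyme activity, BAM9 (AT5G18670) split by replicate. Its signals were 13.23, 13.28 and 12.03 in WT, 13.08, 12.98 and 13.05 in WT + PSY1, 12.17, 12.25 and 12.29 in *psy1r*, and 12.75 and 12.00 in *psy1r* + PSY1. WT replicate 3 fell below all *psy1r* arrays while WT replicates 1 and 2 lay above them. The difference between *psy1r* and WT was -0.61 (standard error 0.324, 95% interval -1.34 to 0.13, adjusted p = 0.393), and within slides it was -1.06, -1.03 and 0.26. Without WT replicate 3 it was -1.02 and was called (adjusted p = 0.0342). Between *psy1r* + PSY1 and WT + PSY1, whose arrays did not overlap, the BAM9 difference was -0.66 (standard error 0.362, adjusted p = 0.345), within slides -0.32 and -1.05.

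BAM4 (AT5G55700), which is needed for normal starch breakdown although it lacks activity, was slightly lower in the mutant. Its signals were 10.52, 10.43 and 10.21 in WT, 10.30, 10.29 and 10.26 in WT + PSY1, 10.16, 10.01 and 10.18 in *psy1r*, and 10.12 and 10.06 in *psy1r* + PSY1. The mutant arrays were below the wild type arrays in both treatments without overlap, though by little. The differences were -0.27 without PSY1 (standard error 0.108, unadjusted p = 0.0359, adjusted p = 0.264) and -0.19 with PSY1 (standard error 0.12, adjusted p = 0.403), and neither passed the test.

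The nuclear members BAM7 (AT2G45880) and BAM8 (AT5G45300) also gave no call. BAM8 signals were 9.65, 9.78 and 10.01 in WT and 9.62, 9.63 and 9.67 in WT + PSY1. They were 9.43, 9.46 and 9.88 in *psy1r*, and 9.39 and 9.84 in *psy1r* + PSY1, and replicate 3 was the highest array in each group. The BAM8 difference between *psy1r* and WT was -0.22 (95% interval -0.61 to 0.16, adjusted p = 0.563). The main probe of BAM7 (A_84_P609619) ran from 7.64 to 8.10, and its *psy1r* + PSY1 arrays, at 8.04 and 8.02, lay above the WT + PSY1 arrays by 0.22 (adjusted p = 0.46).

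The probes of BAM7 disagreed on the response of WT to PSY1. The second probe (A_84_P837147) gave 6.45, 6.29 and 6.16 in WT and 5.52, 5.75 and 5.12 in WT + PSY1, with no overlap and a difference of -0.84, which was negative on each slide. The main probe gave 7.93, 7.84 and 7.72 against 7.84, 7.77 and 7.82, a difference of -0.02. In *psy1r* the second probe gave 5.61, 5.84 and 6.10, and in *psy1r* + PSY1 5.58 and 6.04. The level of BAM7 in WT + PSY1 relative to WT is therefore uncertain.

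AMY1 (AT4G25000), the secreted alpha-amylase, was well above background on all WT arrays and on 1 WT + PSY1 array. Its signals were 4.04, 4.23 and 4.32 in WT, all well above background. In WT + PSY1 they were 3.30, 4.13 and 3.39, of which replicate 2 alone was well above background. In *psy1r* they were 3.40, 3.46 and 2.84 and in *psy1r* + PSY1 3.54 and 4.11, with none well above background. The signal needed differed between arrays, so that 4.11 in *psy1r* + PSY1 did not pass while 4.04 in WT did. Being well above background therefore does not by itself order the groups. The WT arrays lay above those of *psy1r* without overlap, while WT + PSY1 overlapped with each of the other groups.

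In *psy1r* against WT, AMY1 was at least 1.32-fold lower by the bound of the main scaling, with a measured difference of -0.97. Over the alternative settings the measured difference ran from -1.09 to -0.143, so the bound does not hold in all of them. These values are given without a test, because AMY1 passed the filter on dim probes mainly through its WT arrays. In the main scaling the difference was negative on each slide, at -0.64, -0.77 and -1.48. The AMY1 difference between WT + PSY1 and WT was -0.59, described without a test. The median AMY1 spot readings were 55, 62 and 73 in WT beside a local background of 43, 46.5 and 48.5. In *psy1r* they were 53.5, 56 and 54 beside 43.5, 45 and 45.5, so that the values rest on a few scanner units.

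**Figure D4:**
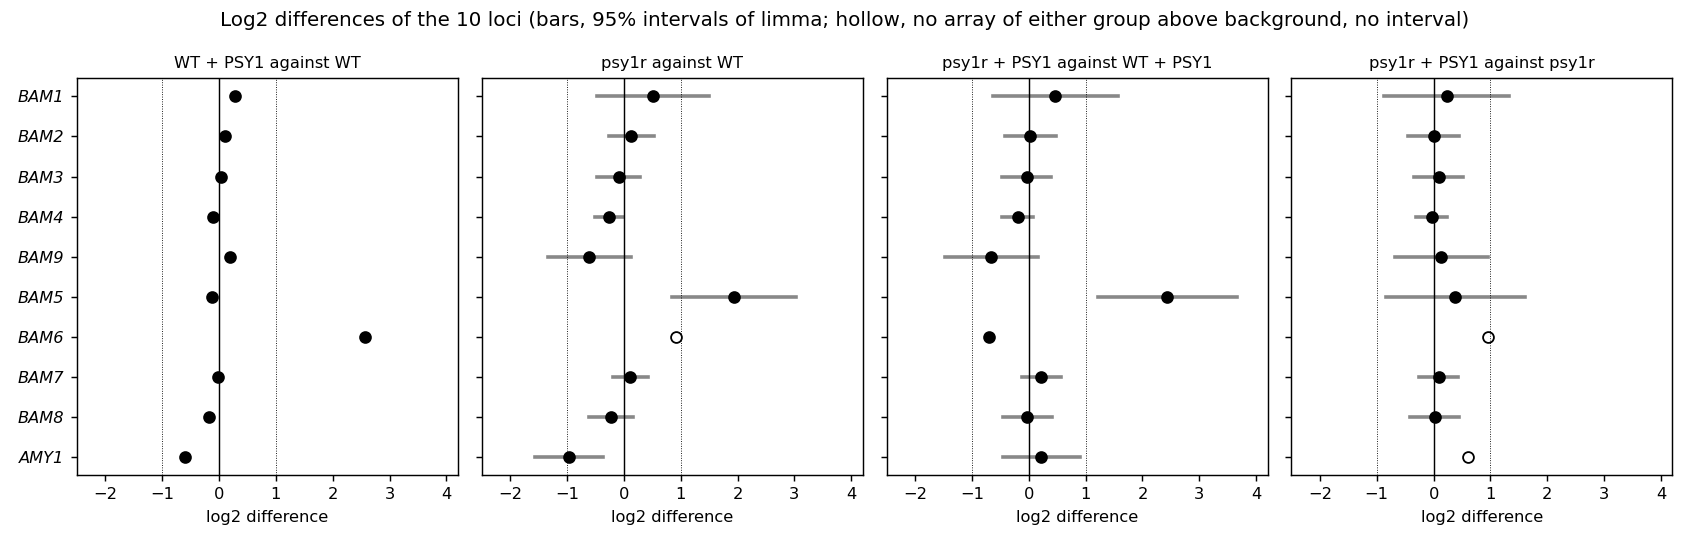
Log2 differences of the main probe of the 10 loci (horizontal axes, dotted lines at 2-fold) in 4 contrasts, with 95% intervals of limma as bars, no intervals for BAM6 or for the contrast behind the choice, and hollow points without intervals where no array of either group was well above background. BAM5 lies farthest from 0 in both contrasts of the mutant against the wild type, at 1.94 and 2.44, and BAM6 in WT + PSY1 against WT, at 2.57. The AMY1 intervals are no tests, since AMY1 passed the filter through WT and WT + PSY1 arrays alone.

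Over the 10 loci, the counts of calls were as follows. In WT + PSY1 against WT 1 locus, BAM6, met the thresholds of a call, which is the value that chose the family and is no test of it, beside 0.219% of all 21923 tested loci, and 1 locus had groups that did not overlap, beside 47.4%. With slide blocking neither BAM6 nor any other locus met them. In *psy1r* against WT 0 of 10 were called by limma (0.885% of all loci were) or by the methods' t-test. At an unadjusted p below 0.05 there were 4, beside 17.5% of all loci, and 4 did not overlap between groups, BAM4, BAM5, BAM6 and AMY1, beside 22.5%. Among them BAM6 had no array well above background in either group, and its WT values belong to the contrast behind the choice. AMY1 passed the filter through WT and WT + PSY1 arrays alone. Neither is taken as support.

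In *psy1r* + PSY1 against WT + PSY1 0 of 10 were called by either test (1.08% of all loci were by limma). At an unadjusted p below 0.05 there were 2, BAM5 and BAM6, beside 21.7% of all loci. BAM6 in this count is no test, since its WT + PSY1 values chose the family. The groups did not overlap for 5, BAM4, BAM5, BAM6, BAM7 and BAM9, beside 49.6%. In *psy1r* + PSY1 against *psy1r* again 0 were called by either test (0.00912% of all loci were by limma). At an unadjusted p below 0.05 there was 1, BAM6, beside 5.43% of all loci, and 2 did not overlap, BAM6 and AMY1, beside 14.9%, and neither had an array well above background in these groups. For the difference between the PSY1 responses 0 were called by either test (0.0593% of all loci were by limma). An unadjusted p below 0.05 was found for 2, BAM6 and AMY1, beside 12.3% of all loci, again with no *psy1r* or *psy1r* + PSY1 array well above background. For BAM6 this comparison contains the contrast that chose the family. AMY1 passed the filter through WT and WT + PSY1 arrays alone, and neither is taken as support. The median log2 differences of the 10 loci were 0.01, 0.01, 0.00, 0.11 and 0.06 in these 5 comparisons, and those of all loci -0.03, -0.03, 0.00, 0.01 and 0.02. Positive differences were found for 5 of the 10 loci in each of the first 3 comparisons, for 9 in *psy1r* + PSY1 against *psy1r* and for 6 in the difference between responses.

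Other genes of starch metabolism were set beside the amylases, 16 of breakdown and 18 of synthesis, and all 34 were tested. In WT + PSY1 against WT none was called by limma, with 6 of the 34 at an unadjusted p below 0.05, beside 22.3% of all loci. A positive difference was found for 15 of the 16 breakdown genes (median 0.09), beside 47.3% of all loci, a count that was not tested. The farthest were LSF1, a protein related to glucan phosphatases, at 0.73 (adjusted p = 0.0953), and APS1, the small subunit of ADP-glucose pyrophosphorylase, at 0.61 (adjusted p = 0.0828). On the lower side, APL3, a large subunit of that enzyme, was at -0.62 and PTST1, a starch synthesis factor, at -0.38.

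GWD2 (AT4G24450), a glucan, water dikinase outside the plastid, was down-regulated in the mutant. Its log2 signals were 10.62, 10.58 and 10.64 in WT and 10.71, 10.65 and 10.63 in WT + PSY1, against 9.48, 9.36 and 9.76 in *psy1r* and 9.39 and 9.88 in *psy1r* + PSY1. All mutant arrays were below all wild type arrays. The difference was -1.08 or 2.11-fold in *psy1r* against WT (standard error 0.149, limma adjusted p = 0.0151) and -1.03 or 2.04-fold in *psy1r* + PSY1 against WT + PSY1 (standard error 0.166, adjusted p = 0.0281, or 0.0578 under slide blocking).

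QQS (AT3G30720), whose product affects leaf starch content, was lower in the mutant by a larger amount. Its signals were 9.73, 9.69 and 11.26 in WT, 10.66, 10.71 and 10.75 in WT + PSY1, 7.94, 7.96 and 8.70 in *psy1r*, and 7.61 and 7.89 in *psy1r* + PSY1. No mutant array reached a wild type array. The difference was -2.96 or 7.77-fold with PSY1 (standard error 0.446, limma adjusted p = 0.0243) and was called. Without PSY1 it was -2.03 or 4.08-fold (standard error 0.399, adjusted p = 0.0516) and just missed the threshold, which it passed under slide blocking (adjusted p = 0.0409).

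GWD2 was the single call among the 34 genes in *psy1r* against WT, beside 0.885% of all loci. GWD2 and QQS were the 2 calls in *psy1r* + PSY1 against WT + PSY1, beside 1.08% of all loci. At an unadjusted p below 0.05 (limma) there were 4 and 7 of the 34 in these contrasts, or 11.8% and 20.6%. The shares over all loci were 17.5% and 21.7%. The highest differences in the mutant were small, LSF2, a glucan phosphatase, at 0.46 without PSY1 (adjusted p = 0.0667) and 0.37 with PSY1 (adjusted p = 0.121), APS1 at 0.42 without PSY1 (adjusted p = 0.201) and APL3 at 0.53 with PSY1 (adjusted p = 0.475). No starch gene was called by limma in *psy1r* + PSY1 against *psy1r* or for the difference between responses, where 0 and 3 of 34 had an unadjusted p below 0.05, beside 5.43% and 12.3% of all loci. The farthest in *psy1r* + PSY1 against *psy1r* were QQS at -0.45, the debranching enzyme ISA3 at -0.31, APL4 at 0.21 and the phosphorylase PHS2 at 0.20. For the difference between responses they were QQS at -0.93, LSF1 at -0.71, APL3 at 0.58 and PTST1 at 0.40.

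**Figure D5:**
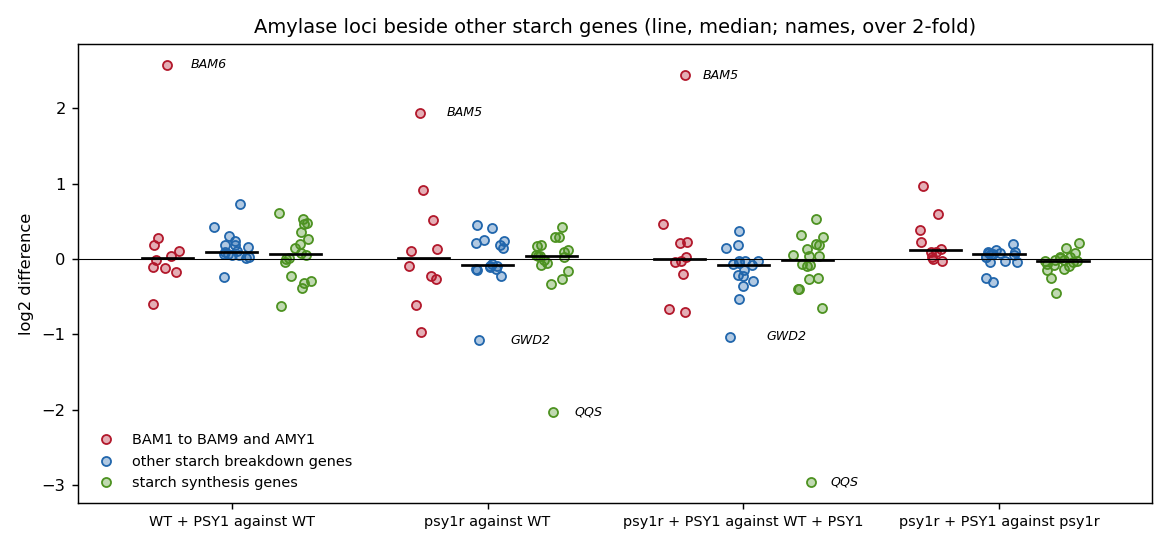
Log2 differences (vertical axis) of the 10 amylase loci, 16 other starch breakdown genes and 18 starch synthesis genes in 4 contrasts, with a line at the median of each list and names on loci beyond 2-fold. Most points lie near 0, while in the contrasts of the mutant against the wild type BAM5 stands at 1.94 and 2.44, GWD2 at -1.08 and -1.03 and QQS at -2.03 and -2.96.

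The loci whose pattern over the 11 arrays was most like that of BAM6, of 21922 loci searched, were EXO70E1 (Pearson r = 0.947), APC1 (0.945), ATAF2 (0.943), AT2G42005 (0.934) and ARK2 (0.933). For AMY1 they were AT5G65590 (0.929), AT3G55890 (0.916), XIF (0.906), AT5G10650 (0.899) and AT3G46700 (0.894). These values are a description, since the arrays share groups and slides and both amylase probes were mostly not well above background.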

How the data were processed

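RNA of whole seedlings was analysed on 11 single-colour Agilent arrays. The authors deposited the scanner output of Agilent Feature Extraction 10.7.3.1, with spot intensity, local background and background-subtracted processed intensity, not normalized between arrays. Their deposited log2 value matrix held the same arrays, and its correlation on each array with the 75th-percentile scaling used here was 0.99993 to 0.99999, although the methods name RMA. This closeness is why the scaling was used, with RMA as an alternative. All deposited columns were mapped to a sample.

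Control spots and spots flagged as outliers were left out, spots of a probe were averaged, and log2 processed intensity was scaled by the 75th percentile of each array. The tested probes were those the scanner software found well above background on 2 arrays or more. The test was limma 3.58.1 in R 4.3.3 (data.table version 1.17.8, statmod 1.5.0) over the 4 groups, with Benjamini-Hochberg adjustment over all tested probes. A locus is given by its probe of highest mean. Calls needed over 2-fold with adjusted p under 0.05. For a group without any array well above background, the fold is a bound against the lowest signal well above background on those arrays, or the probe's own signal where higher. The procedure was tested on simulated data.

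The paper describes the replicates as independent biological samples, while the labels give only a replicate number. Replicates 1 and 2 of WT and of *psy1r* were closer to each other than to replicate 3. Same-numbered arrays shared a slide, and their deviations correlated above 0.1 in 10 of 15 pairs (5 of 30 for different numbers), and as not every pair did, the fit has no block. Slides are a shared batch, so within-slide values are given and blocking is an alternative. The number of arrays limits the precision.

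Named were all probes of the 10 loci, PSY1R, the starch genes called in a comparison and otherwise the 2 highest and 2 lowest, and the 5 loci most like BAM6 and AMY1. The members and lists were chosen with earlier results of these data known. Gene names and loci came from RefSeq (TAIR10.1). Sequences and promoter motifs, which the plan held, were not used here. Alternatives covered the normalization, filter, block, samples, array weights, test (the methods' t-test is the unmoderated 2-group form of their analysis of variance), thresholds and each array left out. Leaving out replicate 3 of WT, *psy1r* and *psy1r* + PSY1 was an alternative chosen after seeing the data.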

Additional observations from a re-analysis of the deposited data

How the results depend on the processing

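Over 26 alternative settings, the 50 differences of the amylase loci kept their side of the threshold in 1252 of 1280 cases. They gained a call in 20 and lost one in 8, all 8 of BAM6 in the contrast behind the choice. The difference changed sign in 97 of the 1280 cases, each without a call in the main or the alternative setting. As only BAM6 in that contrast met the thresholds in the main setting, the kept cases are mostly differences that stayed uncalled. In the contrast behind the choice, WT + PSY1 against WT, the count of 1 describes BAM6 and is no independent call. It became 0 with normexp, with the replicate block (slide), with replicates 1 and 2 averaged, and with only probes above background on all arrays, which leaves 8 amylase loci and not BAM6. It ranged from 0 to 1 with single arrays left out, at 0 without WT replicate 1 or 2 or any WT + PSY1 array, while the difference stayed at 2.47 to 2.64. In *psy1r* against WT the count rose from 0 to 1 with the replicate block and with unadjusted p, to 2 with array weights and with replicate 3 of the 3 groups left out, and lay at 0 to 2 with single arrays left out (2, BAM5 and BAM9, without WT replicate 3). In *psy1r* + PSY1 against WT + PSY1 it rose to 1 with RMA, normexp, probes above background on all arrays, only the groups compared, array weights, unadjusted p and replicate 3 left out. It lay at 0 to 1 with single arrays left out, at 1 (BAM5) without replicate 3 of WT or of *psy1r* or replicate 1 of *psy1r* + PSY1. For the difference between responses it was 2 with unadjusted p, BAM6 and AMY1, neither of which is taken as support. The cause of these changes was not tested.

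For the 34 other starch genes, the 1 call in *psy1r* against WT became 2 with probes above background on all arrays, the replicate block, array weights, unadjusted p and replicate 3 left out. It became 0 with only the groups compared, replicates averaged and the t-test, and lay at 0 to 2 with single arrays left out (0 without replicate 1 or 2 of WT or *psy1r*, 2 without replicate 3 of either or without either *psy1r* + PSY1 array). The 2 calls in *psy1r* + PSY1 against WT + PSY1 became 1 with RMA, normexp, the replicate block, only the groups compared and the t-test, became 0 with replicates averaged, and lay at 0 to 2 with single arrays left out (0 without any WT + PSY1 array, 1 without WT replicate 1 or 2, *psy1r* replicate 1 or either *psy1r* + PSY1 array). For the difference between responses 1 was called with replicate 3 left out, and 0 to 1 with single arrays left out (1 without *psy1r* + PSY1 replicate 1). Over all loci, the 48, 194, 236, 2 and 13 calls of the 5 comparisons ranged from 0 to 595, 0 to 1279, 2 to 1315, 0 to 571 and 0 to 726. With the replicate block they were 0, 158, 60, 1 and 1. BAM6 and AMY1 are limited by spot signals close to the local background.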
